A study of Mus musculus with 8 samples.

Results

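The regions described here are stretches of the mouse genome where hotspots of both Snf2h libraries met and where no hotspot of any Brg1 or CHD4 library overlapped them. A hotspot is a stretch where the authors' peak caller found more sequenced fragments, or tags, than the background. Hotspots of all 6 lists that overlapped by at least 1 bp were merged into 532751 regions, of which 710 (0.133%) met the rule. Of the 18085 regions that held hotspots of both Snf2h lists, 3.93% were exclusive to Snf2h in this sense, and 17375 also held a hotspot of Brg1 or CHD4. The members were chosen by the hotspot calls of all 6 lists, so their Snf2h values are given as a description, with no test. "Exclusive" says that no hotspot was listed, not that the other proteins were absent.

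Chromatin immunoprecipitation sequencing (ChIP-seq) was done on untreated 3134 cells, a murine mammary epithelial line, with antibodies to Snf2h, CHD4 and Brg1, the last a monoclonal. Each antibody has replicates 1 and 2. The 2 DNA inputs in the labels were not analysed here. The labels do not say whether replicates were separate cultures, and differences between them may be technical. The labels' protocol text is about DNase I digestion and lines with dominant-negative remodelers, and no protocol of the immunoprecipitation was used here.

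Snf2h is the ATPase of the ISWI complexes, among them ACF, CHRAC, WICH, NoRC and RSF, which slide nucleosomes and space them evenly. Brg1 is an ATPase of SWI/SNF complexes, which shift or evict nucleosomes at promoters and enhancers, and CHD4 is the ATPase of the NuRD complex, which also holds histone deacetylases. ISWI complexes are known for ordering nucleosomes around bound factors, for chromatin assembly, and, as NoRC, for silencing ribosomal RNA genes.

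The lists differed in length and in how far down they reached. Snf2h replicates 1 and 2 held 32310 and 79969 hotspots, with lowest Z scores, the caller's measure of enrichment, of 8.60 and 8.50. CHD4 replicate 1 and Brg1 replicate 1 held 39797 and 115361 hotspots and began at Z scores of 8.77 and 9.49. CHD4 replicate 2 and Brg1 replicate 2 held 293135 and 260036 hotspots and began at a Z score of 2.00. Together the 4 Brg1 and CHD4 lists covered 236.2 Mb, or 9.17% of the span between the first and the last hotspot of each chromosome. A Snf2h region was therefore set against 2 shorter lists and 2 long ones that went down to lower Z scores.

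The same rule applied to the other proteins gave 8517 regions exclusive to Brg1, or 16.6% of the 51161 regions with both Brg1 lists. It gave 793 regions exclusive to CHD4, or 2.64% of the 30083 regions with both CHD4 lists. The Snf2h share lay between these, but the lists each protein was set against differed, so the shares are not measures of how often each acts alone.

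Regions exclusive to Snf2h were short. Of the 710, 707 held exactly 1 hotspot of each Snf2h list and 3 held 3 hotspots. The rule fixes this in part, since no Brg1 or CHD4 hotspot can join further Snf2h hotspots to a member. Their median width was 487 bp (range 253 to 1385 bp), against 1154 bp (293 to 8615 bp) for the other Snf2h regions. Part of this contrast comes with the merging, since a region that also holds Brg1 or CHD4 hotspots is extended by them. The widest Snf2h hotspot of each list in a region was narrower as well. Its median width was 370 bp in replicate 1 and 401.5 bp in replicate 2 in exclusive regions. In the other Snf2h regions, which can hold several hotspots of a list, it was 462 and 635 bp. A narrow hotspot also has less chance of touching another hotspot, and how much of the contrast this makes was not tested. Regions exclusive to Brg1 and to CHD4 had a median width of 531 bp each. All exclusive Snf2h regions together took up 352.8 kb.

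The widest was chromosome 4 at 126422131 to 126423515 (mm9, the build used for all coordinates), 1385 bp long. It held 3 hotspots and reached a maximum tag density of 21.5 in Snf2h replicate 1 and 12.5 in replicate 2. Next came 2 regions of 893 bp, chromosome 4 at 6749778 to 6750670 and chromosome X at 108640672 to 108641564. The other regions with 3 hotspots were chromosome 14 at 95399956 to 95400847 and chromosome X at 61448371 to 61448926. These last 2 were low, with maximum densities of 5.54 and 3.07 on chromosome 14 and 5.54 and 2.36 on X, in replicates 1 and 2.

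Both Snf2h hotspots of an exclusive region lay close together, which the rule fixes in part. With no other hotspot between them they had to overlap to be merged, whereas in the other Snf2h regions Brg1 or CHD4 hotspots can join them. The midpoints of the replicates' hotspots were a median of 59.75 bp apart (range 0 to 421 bp), against 71 bp in the other Snf2h regions (up to 4843.5 bp). In 469 exclusive regions (66.1%) the midpoints lay within 100 bp, against 60.9% of the others. The hotspots overlapped by a median of 278 bp (4 to 575 bp), or 95.6% of the shorter, against 428 bp. One hotspot lay wholly inside the other in 272 exclusive regions (38.3%) and in 60.0% of the other Snf2h regions. These positions are those of the tallest hotspot of each list in a region. The widest hotspot of a region had the higher median width in replicate 2 in both sets. It was 401.5 against 370 bp in exclusive regions and 635 against 462 bp in the others.

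Most exclusive regions were low. Height is given as the maximum tag density in the authors' units, whose scaling is not stated, and as the percentile of that density among all hotspots of the same list. In Snf2h replicate 1, exclusive regions ran between 2.08 and 40.2 with a median of 9.70, against a median of 18.7 and a highest value of 564 in the other Snf2h regions. In replicate 2, they ran between 1.89 and 48.0 with a median of 5.91, against a median of 23.6 and a highest value of 915. The median percentiles were 29.5 and 28.1 in exclusive regions and 70.3 and 82.0 in the others, so both libraries placed them in the lower part of their lists while the ranges overlapped. Averaged over the replicates, the percentile had a median of 29.6 (interquartile range 13.3 to 53.8) in exclusive regions and 75.1 in the others. The others can hold several hotspots of a list, of which the tallest was taken.

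The heights spread over most of the scale. By mean percentile, 126 exclusive regions lay below 10 and 138 between 10 and 20, and the count fell to 63 between 50 and 60, 37 between 80 and 90 and 2 above 90. Both replicates put 258 regions below percentile 25, 149 above 50 and 34 above 75. Above percentile 90 of a Snf2h list there were 15, of which 1 was above it in both lists.

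**Figure D1:**
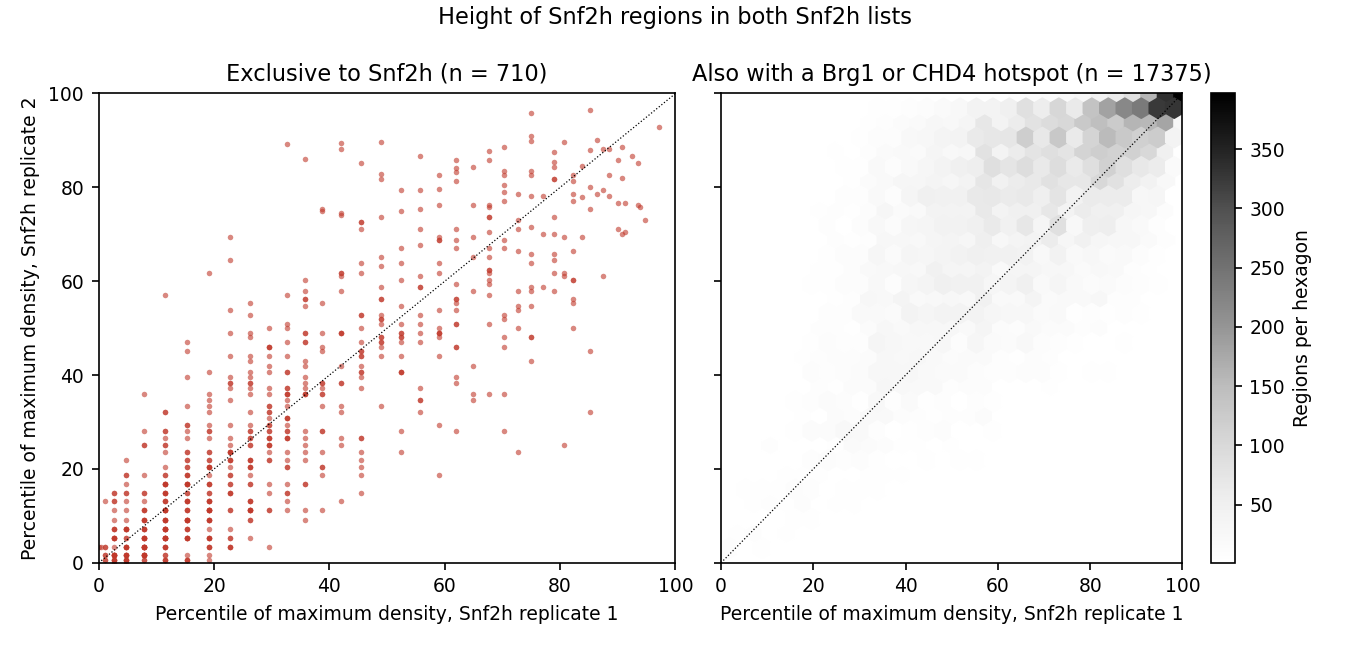
Percentile of maximum tag density in Snf2h replicate 1 (x axis) and replicate 2 (y axis) for the 710 exclusive regions (left, 1 point each) and, as counts per hexagon, for the 17375 other Snf2h regions (right). Exclusive regions lie along the diagonal with most below percentile 50, with medians of 29.5 and 28.1, whereas the others crowd at the upper right, with medians of 70.3 and 82.0.

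The caller's Z score placed the exclusive regions higher than their density did. The median Z score was 10.8 in replicate 1 and 12.5 in replicate 2 in exclusive regions, against 13.1 and 27.5 in the other Snf2h regions. As within-list percentiles these were 44.3 and 47.2, against 67.3 and 83.9. Both Z percentiles were above 50 in 180 exclusive regions, and 24 of the regions below percentile 25 of density in both replicates were above percentile 50 of Z score in both. Ranking by average instead of maximum density gave a median percentile of 35.3 for exclusive regions and 73.4 for the others. The ratio of maximum to average density had medians of 2.96 and 2.83 in exclusive regions, in replicates 1 and 2. In the others the medians were 3.54 and 3.84, with lowest values of 0.803 and 0.792. Regions with a hotspot of 1 Brg1 or CHD4 list were close to the exclusive ones, at 2.90 and 2.92. Those with all 4 lists had 3.77 and 4.27. A maximum cannot lie below the average of the same signal, so the lowest ratios show that the 2 densities were not always on 1 scale. In regions with several hotspots of a list, the 2 values can also come from different hotspots. The ratio is therefore not read as a measure of how peaked a hotspot is.

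The replicates ordered the exclusive regions alike by density and much less so by Z score. Spearman's rho of maximum density between the Snf2h lists was 0.856 over the 710 exclusive regions and 0.657 over the 17375 others. It was much lower where low hotspots were left out, at 0.365 over the exclusive regions of the taller 50% of the Snf2h lists and 0.348 over those of lists of equal size. For the Z score it was 0.220 in exclusive regions and 0.459 in the others. These are descriptions over regions that come from the same 2 libraries, share their depth and had to pass the caller in both. Percentiles of density differed between replicates by a median of 7.64 points, and 422 regions (59.4%) agreed within 10 points. In 404 regions the percentile was higher in replicate 1 and in 306 it was higher in replicate 2.

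In 15 regions the percentiles were over 40 points apart. Chromosome 17 at 72871742 to 72872209 had a maximum density of 22.2 in replicate 1 and 5.44 in replicate 2, which are percentiles 80.7 and 25.1. Chromosome 13 at 95787778 to 95788310 (percentiles 85.1 and 32.2) and chromosome 2 at 4006732 to 4007146 (72.7 and 23.6) leaned the same way. In the other direction, chromosome 5 at 103121362 to 103122012 reached 10.4 in replicate 1 and 30.7 in replicate 2, or percentiles 32.6 and 89.2, with Z scores of 9.55 and 56.1. Chromosome 6 at 116578535 to 116579230 (35.7 and 86.1) and chromosome 15 at 83884252 to 83884925 (42.0 and 89.5) followed. For these regions the libraries do not give 1 height.

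The tallest exclusive region was chromosome 6 at 135094442 to 135095075, 634 bp long, with maximum densities of 40.2 in replicate 1 and 36.4 in replicate 2 and Z scores of 17.9 and 25.4. It was the member above percentile 90 of both lists, at percentiles 97.2 and 92.8. The nearest Brg1 or CHD4 hotspot, of Brg1 replicate 2, lay 2741 bp away. Chromosome 17 at 27224213 to 27224866 followed with 24.2 and 48.0 (percentiles 85.1 and 96.5), 1063 bp from a Brg1 hotspot. Chromosome 12 at 88108729 to 88109301 reached 28.4 and 30.0 (percentiles 90.7 and 88.6), 1055 bp from a CHD4 hotspot. Percentiles in the 2 libraries were closest at the region on chromosome 12 and farthest apart at that on chromosome 17.

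The other 7 of the 10 tallest ran between 24.2 and 31.9 in replicate 1 and between 26.2 and 32.2 in replicate 2. They were chromosome 15 at 81747957 to 81748546, chromosome 6 at 146773396 to 146773977 and 66905182 to 66905795, chromosome 2 at 32422121 to 32422689 and 31642428 to 31643085, chromosome 17 at 79917447 to 79918047, and chromosome 11 at 103046183 to 103046700. Their gaps to a Brg1 or CHD4 hotspot lay between 344 bp, on chromosome 15, and 7440 bp, on chromosome 11. The 10 tallest had widths between 518 and 658 bp, all above the median of exclusive regions. None was on X.

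Snf2h regions changed in steps with the number of Brg1 and CHD4 lists that had a hotspot in them. There were 710 regions with 0 such lists, 1060 with 1, 2034 with 2, 3839 with 3 and 10442 with all 4. The median percentile of Snf2h height was 29.6, 54.7, 64.2, 72.9 and 79.3 in the same order. The largest step was the one between exclusive regions and those with 1 list. The median width of the widest Snf2h hotspot in a region was 370, 405, 431, 449 and 489 bp in replicate 1. In replicate 2 it was 401.5, 469, 513, 584 and 736 bp. By Z score the steps were more even, at median percentiles of 44.3, 55.4, 63.5, 69.9 and 77.1. Exclusive regions were thus the low end of a gradient that all Snf2h regions shared, on each of these measures. Each value is the highest among a region's hotspots of a list, and regions with more lists were wider. Their median width was 487 bp at 0 lists and 1500 bp at 4. A wider region can hold more Snf2h hotspots, and the part of this in the gradient was not tested.

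**Figure D2:**
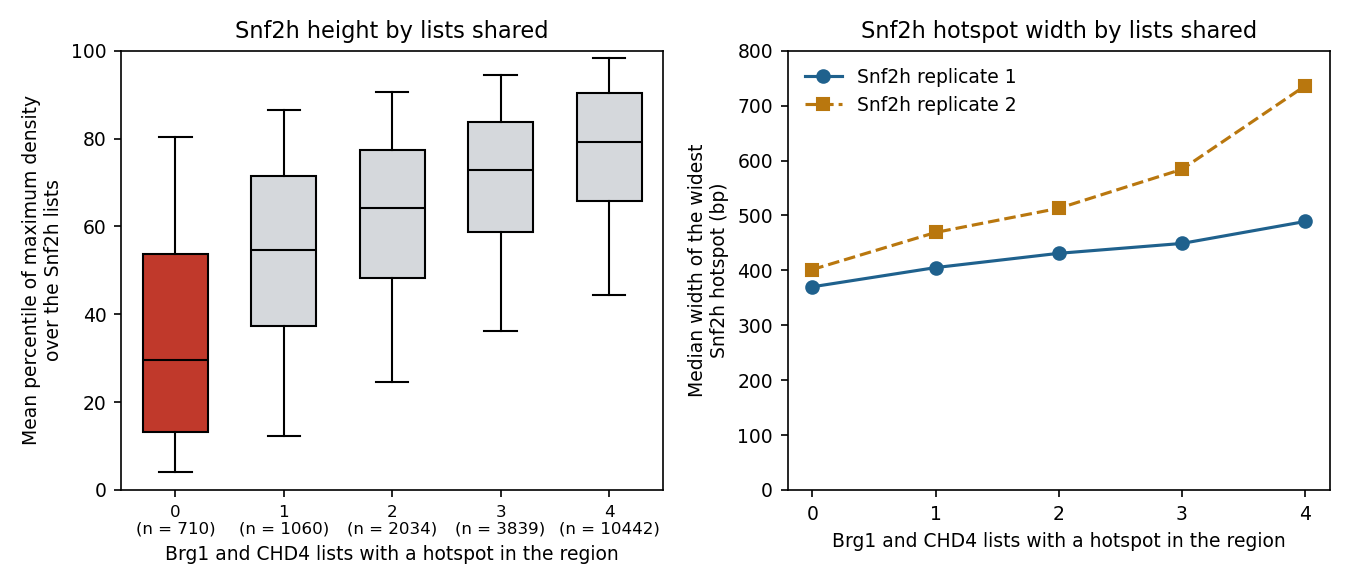
Snf2h regions by the number of Brg1 and CHD4 lists with a hotspot in them (x axis, 0 are the exclusive regions). Left, mean percentile of maximum density over the Snf2h lists (box, median and quartiles; whiskers, the 5th and 95th percentiles), with medians rising in order through 29.6, 54.7, 64.2, 72.9 and 79.3; right, median width in bp of the widest Snf2h hotspot per replicate, lowest at 0 lists.

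The 1060 regions that failed the rule by 1 list failed it mostly by the long ones. CHD4 replicate 2 alone kept out 414 (39.1%) and Brg1 replicate 2 alone kept out 382 (36.0%), against 178 (16.8%) for CHD4 replicate 1 and 86 (8.11%) for Brg1 replicate 1. The single hotspots of CHD4 replicate 2 and Brg1 replicate 2 had median Z scores of 4.87 and 6.03, below the lowest Z score that the other 4 lists contain. Those of CHD4 replicate 1 and Brg1 replicate 1 had medians of 12.0 and 14.7. An equal Z score need not mean equal strength in 2 libraries. The same 17375 other Snf2h regions had median Z scores of 13.1 in Snf2h replicate 1 and 27.5 in replicate 2. A common minimum therefore does not make the lists equally deep. With all lists held to the Z score of 9.49 at which Brg1 replicate 1 begins, 1512 regions met the rule, and their median height percentile was 58.9, against 78.8 for the other Snf2h regions. Of the 710 members, 449 (63.2%) were among them, which is 29.7% of the 1512. The 449 are also the number of members whose Snf2h hotspots both reach that Z score. With the 32310 tallest hotspots of each list, 1472 regions met the rule at a median percentile of 70.2, against 81.1. Of the members, 143 (20.1%) were among them, which is 9.71% of the 1472, so most of these regions were others. Both settings shorten the Snf2h lists too. With the minimum of 9.49 set for the Brg1 and CHD4 lists only, an alternative chosen after seeing the data, 2103 regions met the rule, all 710 members among them. Their median percentile was 53.2, against 76.3 for the other Snf2h regions. The number of exclusive regions thus depended on how deep the Brg1 and CHD4 lists reach, and the regions so defined were lower than the other Snf2h regions in each of the 3 settings, by a smaller margin.

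Among regions just inside and just outside the rule, a few bp decided. Chromosome 13 at 110402428 to 110402829 lay 2 bp from a hotspot of CHD4 replicate 2, and chromosome 8 at 38222548 to 38222961 and chromosome 9 at 97566310 to 97566771 each lay 5 bp from one. Their maximum densities were 7.62, 9.70 and 9.0 in Snf2h replicate 1 and 4.73, 8.98 and 7.57 in replicate 2. On the other side, chromosome 1 at 99036263 to 99037185 overlapped a CHD4 replicate 2 hotspot by 1 bp, with Snf2h densities of 4.85 and 4.26. Chromosome 10 at 51241676 to 51242649 was lost by 1 bp and chromosome 5 at 4263756 to 4264395 by 4 bp. Outside the rule, 22 regions were lost by an overlap of at most 50 bp and 47 by at most 100 bp. Inside it, 57 members lay within 100 bp of a Brg1 or CHD4 hotspot.

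Split into 10 groups of equal size by mean percentile of Snf2h height, the exclusive share was highest at the bottom. It was 24.9% in group 1, the lowest 10% (450 of 1808 regions; 95% Wilson interval 23.0 to 26.9%), 4.81% in group 2, 2.43% in group 3 and 1.83% in group 5. In group 9 it was 0.221%, and in the tallest group 1 region of 1809 was exclusive (0.0553%). The lowest 10% thus held 450 of the 710 members, and within it 1358 regions still had a Brg1 or CHD4 hotspot. The intervals here cover counting error only, and neighbouring regions are not independent.

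Exclusive regions were found on all 20 chromosomes with hotspots, the 19 autosomes and X, at between 0.168 per Mb on chromosome 16 and 0.355 per Mb on X. On X, 58 of 509 Snf2h regions were exclusive, or 11.4% (8.92 to 14.4%), against 652 of 17576 on the autosomes, or 3.71% (3.44 to 4.00%). The next highest shares were 6.91% on chromosome 14 (42 of 608) and 6.04% on chromosome 12 (40 of 662). The lowest were 2.04% on chromosome 19 (11 of 538), 2.42% on chromosome 11 (32 of 1324) and 2.55% on chromosome 16 (16 of 628). The interval of X overlapped that of chromosome 14 (5.15 to 9.21%) and of no other chromosome. For the other proteins the exclusive share on X and on autosomes was 5.96% and 2.55% for CHD4 and 19.5% and 16.6% for Brg1.

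The high share on X came with few Snf2h regions in all. X held 3.11 Snf2h regions per Mb, against 7.28 on the autosomes, and 0.355 exclusive regions per Mb, against 0.270. Snf2h regions on X were also low. The median height percentile of exclusive regions was 8.89 on X and 31.4 on the autosomes, and that of the other Snf2h regions was 48.3 on X and 75.6 on the autosomes. Of all Snf2h regions on X, 45.0% fell in the lowest 10% of height, against 8.98% on the autosomes. Chromosomes 14, 18 and 12 came next with 18.9, 16.0 and 14.7%, and chromosome 11 had 3.40%. The part of low height in the exclusive share of X was not tested.

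**Figure D3:**
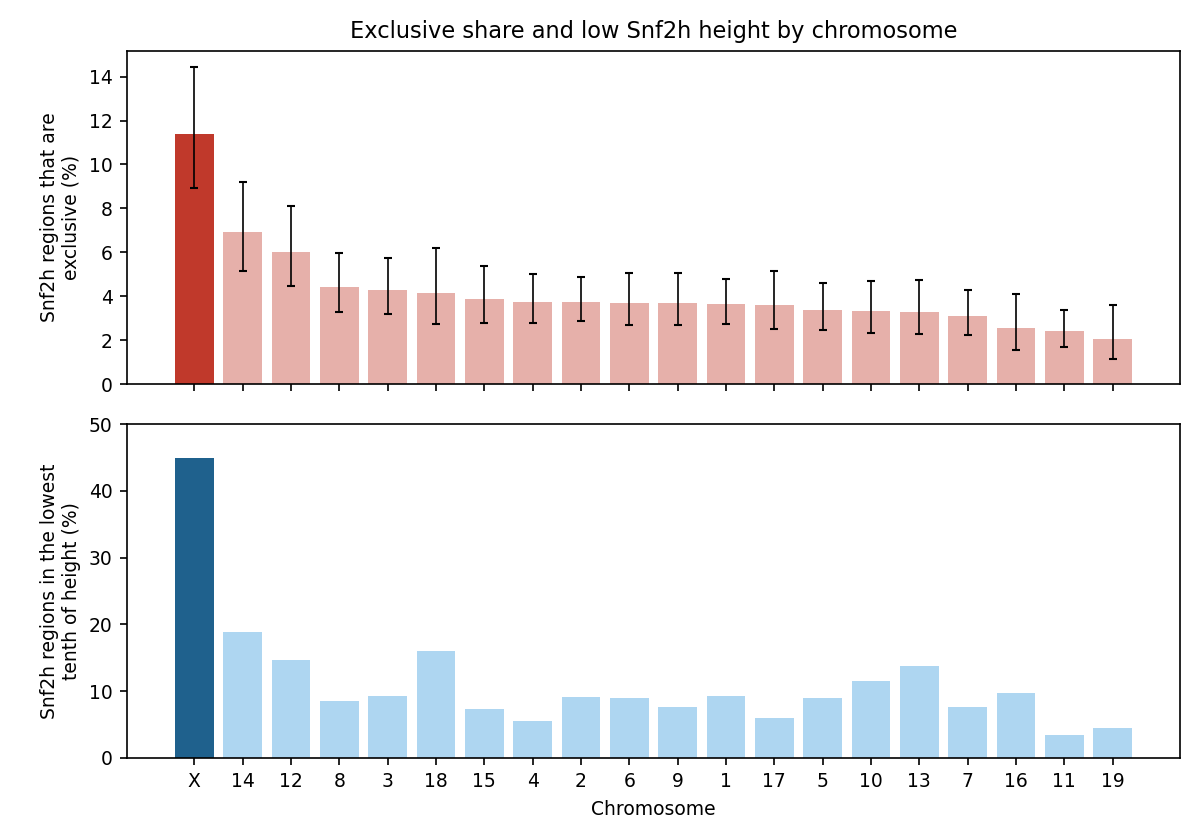
Share of Snf2h regions that were exclusive (top, %, with 95% Wilson intervals) and share in the lowest 10% of Snf2h height (bottom, %), by chromosome, ordered by the top panel with X dark. X is highest in both, at 11.4% and 45.0%.

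At the bottom of the density scale, X and the autosomes had exclusive shares with overlapping intervals. In the lowest 10% by maximum density, 56 of 229 regions on X were exclusive (24.5%; 19.3 to 30.4%), against 394 of 1579 on the autosomes (25.0%; 22.9 to 27.1%). Above it the shares were 2 of 280 on X (0.714%) and 258 of 15997 on the autosomes (1.61%). By average density, the lowest 10% gave 22.9% on X and 21.0% on the autosomes, and the rest 3.34% and 1.98%. By Z score the picture differed. The lowest 10% by Z score gave 28.8% on X (21 of 73; interval starting at 19.7%) and 15.2% on the autosomes (264 of 1735; 13.6 to 17.0%), and above it the shares were 8.49% (6.22 to 11.5%) and 2.45% (2.22 to 2.70%). Exclusive regions had a median Z percentile of 46.4 on X and 44.0 on the autosomes. Exclusive regions on X were thus lower in density than autosomal ones and not lower in Z score, though both were below the other Snf2h regions on X, whose median Z percentile was 73.0. In the lowest 10%, the share on X was below that on the autosomes by maximum density and above it by average density. Both pairs of intervals overlapped, which does not show that the shares are equal. By Z score the share on X was the higher and the intervals did not overlap. With the taller 50% of each Snf2h list, 1 of 127 regions on X was exclusive (0.787%), against 161 of 13301 on the autosomes (1.21%). The order then turned round, but it rests on 1 region and the interval of X (0.139 to 4.33%) holds that of the autosomes (1.04 to 1.41%).

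**Figure D4:**
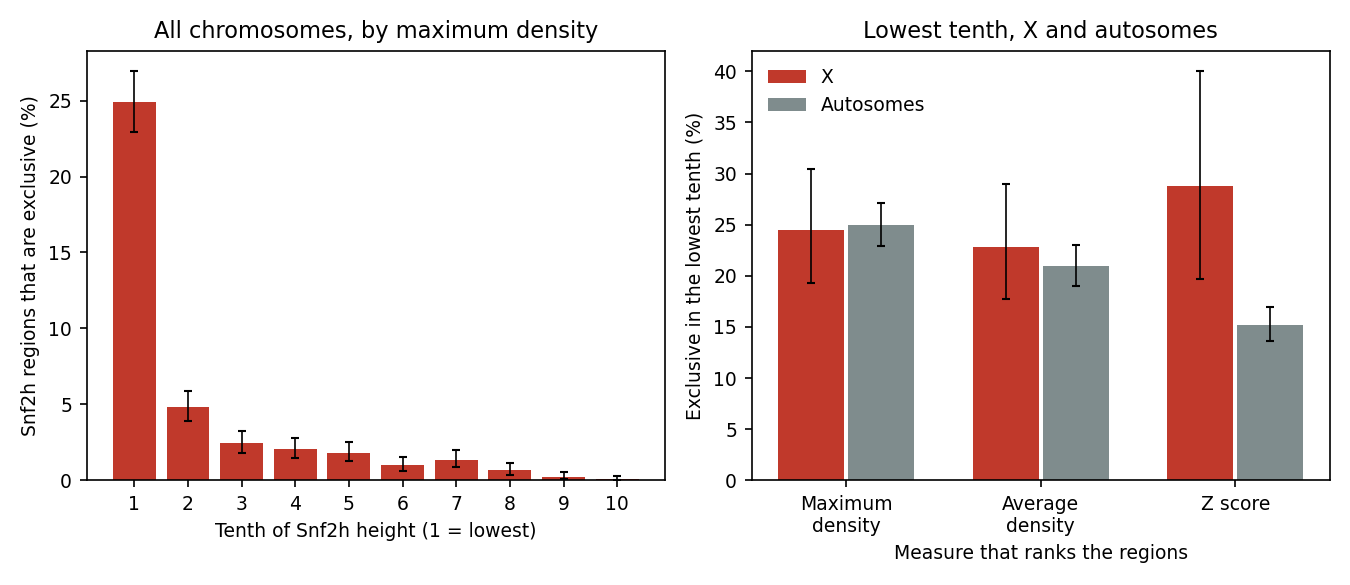
Left, share of Snf2h regions that were exclusive (%, y axis) in each of 10 equal groups of Snf2h maximum density (x axis, 1 lowest), which was 24.9% in the lowest and 0.0553% in the tallest. Right, the exclusive share in the lowest 10% on X and on autosomes when regions are ranked by maximum density, average density or Z score; bars are shares and error bars 95% Wilson intervals, which overlap for both densities and not for the Z score.

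Though they held no Brg1 or CHD4 hotspot, most exclusive regions lay within 5000 bp of one. The median gap to the nearest was 1455 bp (range 2 to 40716 bp; interquartile range 520.25 to 3384.5 bp). Within 100 bp there were 57 regions (8.03%), within 1000 bp 296 (41.7%), within 5000 bp 595 (83.8%), and 32 (4.51%) lay over 10000 bp away. For scale, the pooled Brg1 and CHD4 lists held 500814 regions over a span of 2577 Mb, and neighbouring ones were a median of 2455 bp apart. Gaps were not computed for other stretches of the genome. Whether exclusive regions lay nearer to a hotspot than such stretches was therefore not tested. The gap was 1533.5 bp on X and 1453 bp on the autosomes. Other regions with both Snf2h lists were much farther off, at a median of 115184 bp. They are also far fewer, at 17375 against 500814 regions of the pooled Brg1 and CHD4 lists, so the 2 distances are not comparable.

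The nearest hotspot was one of CHD4 replicate 2 for 299 regions (42.1%), of Brg1 replicate 2 for 270 (38.0%), of Brg1 replicate 1 for 125 (17.6%) and of CHD4 replicate 1 for 16 (2.25%). This is also the order of the lists' lengths. Median gaps to each list were 3240.5 bp for CHD4 replicate 2, 3905 bp for Brg1 replicate 2, 7587 bp for Brg1 replicate 1 and 33287 bp for CHD4 replicate 1. Of the exclusive regions, 75 were both over 2000 bp from any Brg1 or CHD4 hotspot and above percentile 50 of height in both Snf2h lists.

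The most distant member was chromosome 12 at 116691212 to 116691465, 254 bp long and 40716 bp from the nearest hotspot. Its maximum densities were 3.46 and 2.13 in Snf2h replicates 1 and 2, percentiles 1.11 and 0.563, while its Z scores of 10.3 and 11.1 stood at percentiles 37.6 and 36.1. Chromosome X at 155017638 to 155018292 and at 19187190 to 19187528 lay 32185 and 29668 bp away, and chromosome 12 at 18074872 to 18075501 lay 24847 bp away. Their densities were between 4.16 and 4.85 in replicate 1 and between 2.36 and 3.07 in replicate 2. Last, chromosome 2 at 176615773 to 176616140, was 22335 bp away with densities of 5.54 and 5.44 and Z scores of 18.3 and 27.6, at percentiles 87.6 and 84.0. All 5 stood in surroundings with between 1 and 7 Brg1 and CHD4 hotspots in 100 kb and had low densities, the last with a high Z score.

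Exclusive regions lay where Brg1 and CHD4 hotspots were sparser. Counting hotspots of the 4 lists within 50 kb on either side and leaving out those in the region itself, exclusive regions had a median of 24 (range 1 to 77) and the other Snf2h regions 36 (1 to 100). In the lowest 10% of height the medians were 19 and 27, and above it 34 and 36. In 5 groups of equal size ordered by this count, low to high, 10.7% (386 of 3617), 3.37, 2.18, 2.10 and 1.30% were exclusive. Within the lowest 10% of height the shares over the same groups were 34.4% (328 of 953), 16.5, 14.6, 12.7 and 7.92% (8 of 101). The share fell with the number of neighbours at low height too. On X, exclusive regions had a median of 10.5 hotspots in 100 kb, and on the autosomes 26. A region has less chance of meeting a hotspot where hotspots are sparse, and the part of this in the result was not tested.

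**Figure D5:**
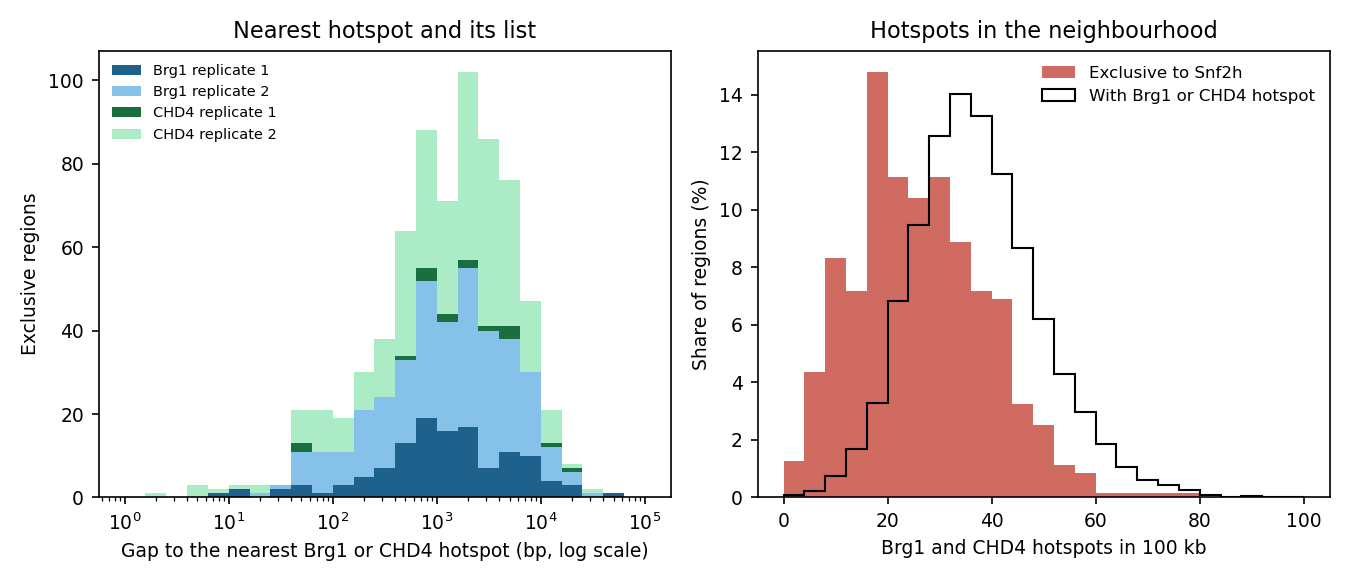
Left, number of exclusive regions (y axis) by gap in bp to the nearest Brg1 or CHD4 hotspot (x axis, log scale), stacked by the list of that hotspot; the median gap was 1455 bp. Right, Brg1 and CHD4 hotspots within 50 kb on either side (x axis) as a share of exclusive regions (filled) and of the other Snf2h regions (line), with medians of 24 and 36.

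The exclusive regions were not alike among themselves. Ordered by height into 5 groups of 142 regions, low to high, the median height percentile was 6.06, 16.1, 29.6, 48.5 and 71.7. The median number of Brg1 and CHD4 hotspots in 100 kb was 11, 19, 28, 32 and 36. The lowest group therefore sat in sparse surroundings, and the highest had the count of the other Snf2h regions. The median gap was 2067, 1179.5, 989.5, 1337.5 and 1951.5 bp, smallest in the middle. Of the 58 regions on X, 33 were in the lowest group and 1 in the highest. The median Z percentile was 34.6, 37.3, 41.9, 48.1 and 65.2, and the median width 441, 485.5, 471.5, 488 and 538.5 bp.

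Few exclusive regions had another one nearby. Within 100 kb of each other there were 24 pairs, with 48 members in all (6.76%), and no group was larger than 2. Neighbouring members were a median of 2.36 Mb apart, with a smallest gap of 530 bp and a largest of 31.1 Mb. The smallest gap was on chromosome 1, between 54720637 to 54721094 and 54721625 to 54721985, with maximum densities of 9.70 and 10.4 in replicate 1 and 5.44 and 5.67 in replicate 2. On chromosome 2, the region at 31640471 to 31641075 was the neighbour of one of the 10 tallest, 31642428 to 31643085, with densities of 19.4 and 24.9 in replicate 1 and 18.2 and 32.2 in replicate 2. A further pair on chromosome 2, at 67258524 to 67259041 and 67315756 to 67316243, was low. Counted in fixed bins of 5 Mb, the largest number of members was 7, where the whole span held 0.276 members per Mb. Whether members were grouped or spread evenly at this scale was not tested.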

How the data were processed

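ChIP-seq hotspots were called by the authors in each library separately. CASAVA 1.6 and mm9 are named in the submitters' processing notes, without their roles. The caller, its thresholds and its use of inputs were not given in the sources used here. Per the file headers, each deposited hotspot has a maximum and an average tag density (a signal of unstated scaling), a score (the Z score) and a p-value, which was not used. Both kinds of value are the authors' and were ranked within a list. Z scores were also compared between lists, where a common minimum was set. Tag counts were not analysed here, so the depth of each library is unknown.

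Groups and replicate numbers came from the labels. Intervals were read as closed, and hotspots overlapping by at least 1 bp were merged (Python 3.11.15, numpy 2.4.6, pandas 2.3.3, scipy 1.17.1, matplotlib 3.10.9). The merging was tested on simulated data with sites well apart. Overlaps of a few bp and the joining of neighbouring sites were not tried there. Where a region held several hotspots of a list, the tallest gave its height. Shares carry 95% Wilson intervals. No comparison of conditions exists in this design and no test was made. The members, the lists compared and the measures were chosen with earlier results of these data known. Named regions are the 10 tallest, the 5 farthest from a Brg1 or CHD4 hotspot, the 3 widest, 3 of the groups within 100 kb (all have 2 members, so the first by chromosome and start), the 3 nearest on either side of the rule, and the 3 with the largest difference between replicates in each direction; the 2 remaining regions of 3 hotspots were added after their values were seen. Alternatives covered overlap, distance, list depth, height measure, distance between neighbours and each library left out. Genes and sequences at these regions were not analysed here, since no mm9 genome or annotation was used.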

Additional observations from a re-analysis of the deposited data

How the results depend on the processing

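As reported there were 710 exclusive regions, with median height percentile 29.6, median width 487 bp, an exclusive share of 11.4% on X, a median gap of 1455 bp and 48 members within 100 kb of another. Requiring 50% overlap gave height 34.8, width 476 bp and gap 1010 bp. Leaving out regions with a Brg1 or CHD4 hotspot within 500 bp gave 8.64% on X (2.82% on autosomes), gap 2219 bp and 28 grouped members. Leaving out those within 2000 bp gave 295 regions, height 30.9, 5.11% on X (1.53% on autosomes), gap 4093 bp and 8 grouped. The gaps are larger by construction in both. A common Z score minimum gave 1512 regions, height 58.9, width 529.5 bp, 14.3% on X (9.71% on autosomes), gap 5079 bp and 201 grouped. Set for the Brg1 and CHD4 lists only, a choice made after seeing the data, it gave 2103 regions, height 53.2, width 514 bp, 18.3% on X (11.5% on autosomes), gap 4938 bp and 357 grouped. The taller 50% of the Snf2h lists gave 162 regions, height 70.5 (80.8 for the other Snf2h regions), width 530.5 bp, 0.787% on X, gap 1806.5 bp and 6 grouped. Equal list sizes gave 1472 regions, height 70.2, width 574 bp, 22.7% on X (10.3% on autosomes), gap 10314.5 bp and 335 grouped. Asking only that no region hold both Brg1 or both CHD4 lists, so that 1 list of each is allowed, gave 3372 regions, height 56.4 (77.1 for the others), width 602 bp, 30.5% on X (18.3% on autosomes), gap 0 bp by construction and 994 grouped. Ranked by average density and by Z score the height was 35.3 and 44.3.

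Leaving out each library in turn gave between 799 and 25198 regions, height 19.1 to 41.4, width 327 to 497 bp, 13.2 to 60.6% on X, gap 1354 to 2358 bp and 60 to 21840 grouped. The count was 1105 without Brg1 replicate 2, 1133 without CHD4 replicate 2, 8893 without Snf2h replicate 2 and 25198 without Snf2h replicate 1, because fewer lists have to meet or be absent. Exclusive regions had a lower median height than the other Snf2h regions under every alternative that was run, and a higher share on X than on autosomes under all but the taller 50%. Beyond the smaller number of lists, the cause of these changes was not tested. Also chosen after seeing the data, 5 height groups in place of 10 gave lowest-group shares of 17.0% on X and 14.6% on autosomes, and a window of 25 kb gave a median of 11.5 neighbours in place of 24. No paired analysis was possible because the results come from no test. Alternatives for gene annotation and sequence content were not run. With 2 libraries per antibody and unknown depth, a missing Brg1 or CHD4 hotspot may be one below a list's threshold.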
